A study of Mus musculus with 24 samples.

Results

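Levels of 9 genes listed together as brakes of PI3K and mTOR signalling were followed in mouse CD4+ T cells before and after stimulation through CD3 and CD28. The genes are Pik3ip1, Inpp4b, Inpp5d, Ddit4, Sesn1, Sesn3, Tsc1, Txnip and Tsc22d3. They were chosen by symbol, with earlier results of these data known. Each symbol matched 1 of the 54446 gene identifiers in the count table. All 9 passed the filter on low counts and were tested. The libraries came from spleens of 3 mice labelled wild type (WT, mouse numbers 1, 3 and 4) and 3 mice labelled AIM2-/- (numbers 1, 2 and 4), called Aim2-/- here. Aim2-/- mice lack a cytosolic sensor of double-stranded DNA and were on the C57BL/6 background of the WT mice. The methods of the study describe all animals as matched for sex and age, with no age given, and the deficiency is not limited to T cells. CD4+ T cells of each mouse were taken unstimulated (0 h) and at 3, 6 and 24 h of stimulation by anti-CD3 and anti-CD28 antibodies, giving 8 groups of 3 libraries. No unstimulated culture of 3, 6 or 24 h was among the samples, so the effect of stimulation and that of culture cannot be told apart.

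Library totals lay between 19715161 and 21627018 counts. The labelled cell type was checked by markers. The summed level of 8 CD4 T cell markers was 3537 to 5298 CPM (counts scaled to a common library total) over the 24 libraries. The sums of 10 B cell markers and of 5 CD8 T and NK cell markers were at most 52.5 and 52.7 CPM. Those of 10 myeloid and 6 erythroid markers reached 421 and 498 CPM, both in Aim2-/- libraries. The libraries of 1 mouse went against their label. Aim2 lay between 5.57 and 21.5 CPM in the 4 libraries labelled WT 1, between 32.5 and 75.0 CPM in the 8 libraries of WT 3 and WT 4, and between 5.28 and 20.1 CPM in the 12 libraries labelled Aim2-/-. The main comparisons of the members are therefore given with and without the mouse labelled WT 1.

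The pathway works as a chain of phosphorylation steps. When the T cell receptor and CD28 are engaged, PI3K makes a lipid signal at the plasma membrane that recruits the kinase AKT, and AKT in turn relieves the TSC complex, whose job is to keep mTORC1, the kinase complex that promotes protein synthesis and growth, switched off. The brakes act at different steps. Pik3ip1 acts on PI3K itself, and the phosphatases Inpp4b and Inpp5d act on its lipid products. Ddit4, the sestrins and Tsc1 act on mTORC1. For Txnip and Tsc22d3, which are listed with them, no such step is named here. Resting T cells are small cells with little anabolic activity, and FOXO transcription factors, which AKT drives out of the nucleus, are known to maintain several of these genes, the sestrins among them.

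Members that move together raise the question of what their promoters hold. All 9 members were found among the RefSeq promoters of build GRCm38.p6, with 12 start sites in all, and the 250 bases before each start site were searched on both strands for 3 strings: GTAAACA, a core bound by FOXO factors; CACGTG, the E-box; and CACGNG followed after 5 bases by a further CACGNG, a spaced pair of the kind known from glucose-responsive genes. The strings were chosen with these sequences in view. Only the Txnip window held any of them. It is shown because it held both the FOXO core and the spaced pair, on chr3:96557707-96557956, plus strand, with the matches in capitals.
Txnip: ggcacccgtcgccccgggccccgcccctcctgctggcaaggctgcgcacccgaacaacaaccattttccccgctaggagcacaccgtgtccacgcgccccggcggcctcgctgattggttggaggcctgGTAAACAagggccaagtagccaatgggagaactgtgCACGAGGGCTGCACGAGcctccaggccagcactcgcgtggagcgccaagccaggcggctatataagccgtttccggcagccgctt
GTAAACA lay 121 to 115 bases before the Txnip start site, and the pair lay 85 to 69 bases before it. Of 32851 promoter windows of this length, 3.17% held GTAAACA, 6.02% held CACGTG and 0.0457% (15 windows) held the spaced pair. These are matches of letters, not measured binding, and the windows of the other members say nothing about factors that bind elsewhere.

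The 9 genes started from different levels. Per kilobase of annotated exon, WT cells at 0 h held Txnip at 351 ± 31.8 CPM per kb (SD, n = 3), far above Tsc22d3 at 89.4 ± 8.70. Sesn3 (44.6 ± 2.79), Pik3ip1 (43.2 ± 8.57), Sesn1 (41.1 ± 5.84) and Inpp5d (37.1 ± 4.57 CPM per kb) followed, neighbours that differed by less than their spread. Ddit4 (24.6 ± 6.85), Inpp4b (17.8 ± 2.52) and Tsc1 (11.8 ± 0.573 CPM per kb) were lowest. At 24 h the order in WT cells was another one. Txnip (23.4 ± 5.21), Inpp4b (21.0 ± 0.941) and Inpp5d (19.3 ± 0.564 CPM per kb) were now close together at the top, and Tsc22d3 (4.96 ± 1.90), Tsc1 (4.57 ± 0.123) and Pik3ip1 (3.43 ± 1.01 CPM per kb) were at the bottom.

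**Figure D1:**
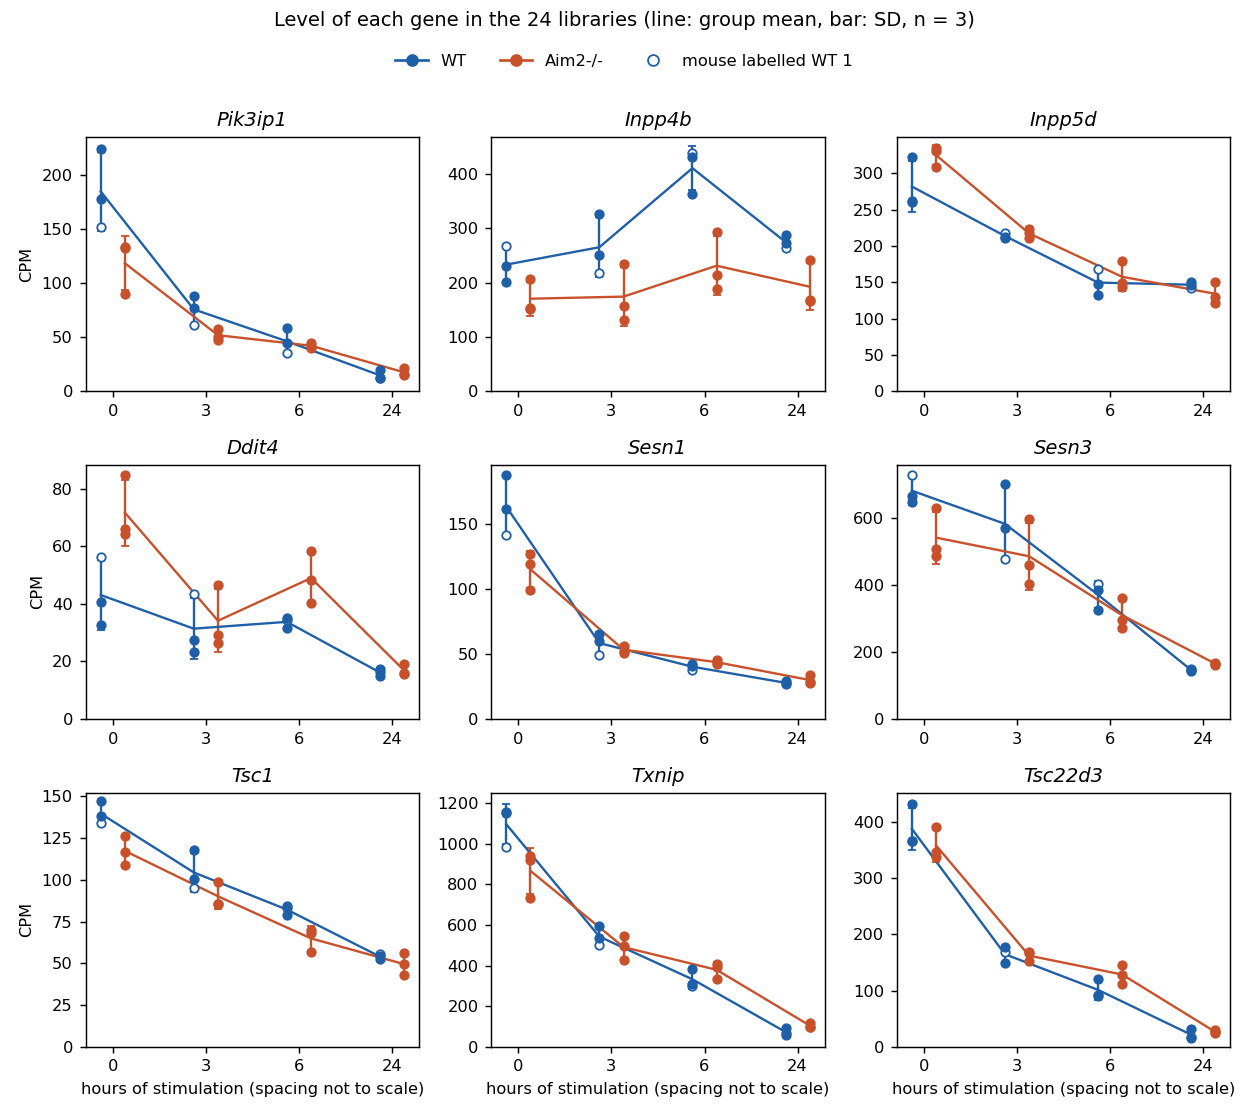
CPM (vertical axis, linear from 0) of each gene at 0, 3, 6 and 24 h (horizontal axis, spacing not to scale). Points are single libraries, lines join group means and bars are SD over 3 mice; open points are the mouse labelled WT 1. Of the 9 panels, the one of Inpp4b rises to a peak at 6 h, and the other 8 end well below their 0 h level.

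After stimulation the group was lower almost throughout. Shares and medians of all genes are given for scale. They are no test of the group, which was chosen with earlier results of these data known. In WT cells 6 members were lower at 3 h (16.4% of all 15325 tested genes were lower), 7 at 6 h (24.8% of all genes) and 8 at 24 h (34.8% of all genes), at an adjusted p under 0.05. The members not called were Inpp4b, Ddit4 and Sesn3 at 3 h, Ddit4 at 6 h and Inpp4b at 24 h. In Aim2-/- cells 7 members were lower at 3 h (14.6% of all genes), 8 at 6 h (22.7%) and 8 at 24 h (33.5%). Those not called were Inpp4b and Sesn3 at 3 h and Inpp4b at 6 and 24 h. The exception was Inpp4b, which was higher at 6 h in WT cells, as were 26.4% of all genes. The median log2 fold change of the 9 members went from -0.46 at 3 h to -0.91 at 6 h and -2.22 at 24 h in WT cells, while that of all genes was 0.02, 0.02 and -0.01. In Aim2-/- cells it was -0.82, -1.05 and -1.94, beside 0.02, 0.08 and 0.03 for all genes. Without the mouse labelled WT 1, the 6, 8 and 8 members called in WT cells were the same ones. In bulk RNA, fewer cells that express a gene and less of its RNA per cell cannot be told apart, and CPM measures each gene relative to the library total, not per cell.

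**Figure D2:**
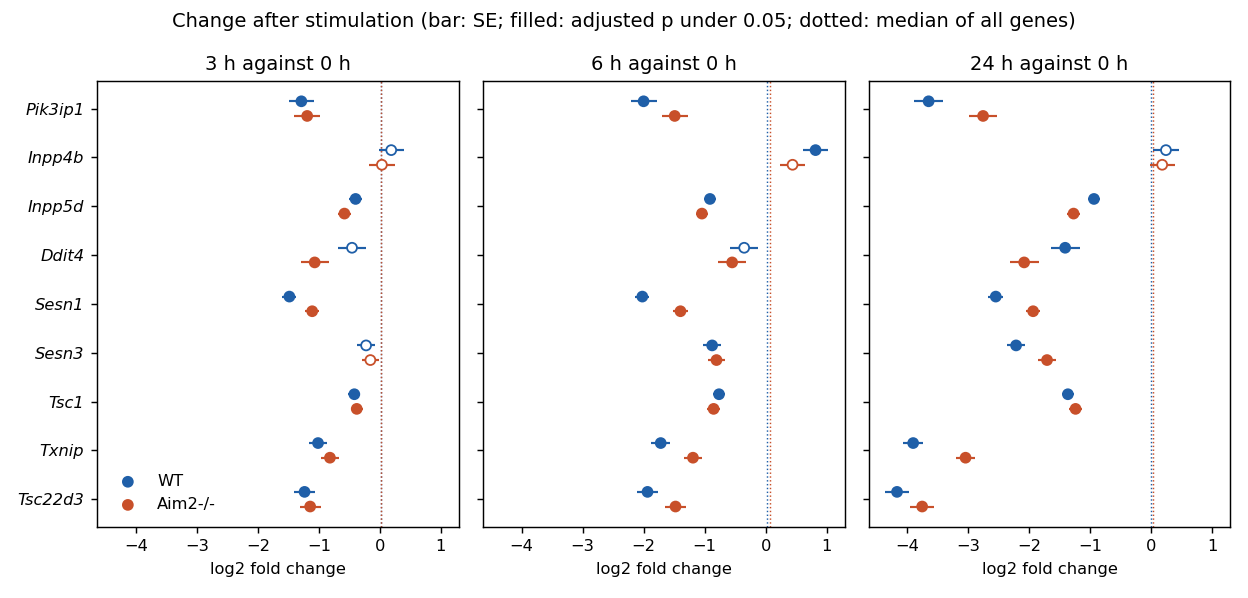
Log2 fold change against 0 h (horizontal axis) of each gene (vertical axis) at 3, 6 and 24 h in WT and Aim2-/- cells, with bars of 1 SE. Filled points have an adjusted p under 0.05 and dotted lines mark the median of all genes. The points of 8 genes move left from panel to panel or stay left of the dotted lines, down to -4.17 for Tsc22d3 in WT cells at 24 h.

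At the top of the pathway, Pik3ip1, a transmembrane protein that binds and inhibits the catalytic subunit of PI3K (GRCm38 chromosome 11, 3330401 to 3342971, plus strand), fell at once and kept falling. In the mice labelled WT 1, 3 and 4 it read 152, 224 and 178 CPM at 0 h, 61.6, 77.3 and 88.1 CPM at 3 h, and 12.5, 11.9 and 19.6 CPM at 24 h. In Aim2-/- mice 1, 2 and 4 it read 89.4, 133 and 133 CPM at 0 h and 21.2, 14.9 and 16.2 CPM at 24 h. No stimulated library reached the lowest 0 h library of its genotype. The log2 fold change at 24 h was -3.65 (SE 0.23, adjusted p = 1.12e-11) in WT cells and -2.76 (SE 0.22, adjusted p = 5.97e-10) in Aim2-/- cells.

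The phosphatases that act on the PI3K lipids parted company. Inpp5d, which encodes SHIP1 and takes a phosphate off the lipid made by PI3K (chromosome 1, 87620312 to 87720507, plus strand), fell early, and its means at 6 and 24 h were close. Its WT means were 282 ± 34.8 CPM at 0 h, 214 ± 3.88 at 3 h, 150 ± 18.0 at 6 h and 147 ± 4.29 CPM at 24 h (SD, n = 3), and its Aim2-/- means were 325 ± 14.0, 217 ± 6.36, 157 ± 19.7 and 134 ± 15.0 CPM. Its log2 fold change at 24 h was the smallest fall among the members called lower in WT cells, -0.94 (SE 0.10, adjusted p = 4.88e-08), and was -1.28 (SE 0.10, adjusted p = 6.38e-10) in Aim2-/- cells.

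Inpp4b, which acts on the next lipid in the series (chromosome 8, 81342556 to 82127914, plus strand), rose and came back. It read 267, 201 and 231 CPM at 0 h in the mice labelled WT 1, 3 and 4, then 438, 364 and 431 CPM at 6 h and 264, 288 and 273 CPM at 24 h. Every WT library at 6 h was above every WT library at 0, 3 and 24 h. At 6 h the log2 fold change against 0 h was 0.82 (SE 0.21, adjusted p = 0.00232), and 0.88 (SE 0.26, adjusted p = 0.0115) without the mouse labelled WT 1. In Aim2-/- mice 1, 2 and 4 it read 152, 207 and 152 CPM at 0 h and 188, 292 and 213 CPM at 6 h, so each mouse was higher at 6 h although the groups overlapped. That change was 0.44 on the log2 scale (SE 0.21, adjusted p = 0.0831), and 0.43 (SE 0.11, adjusted p = 0.00266) with mouse as a replicate block, which compares each animal with itself. At 24 h Inpp4b differed from 0 h by 0.24 (SE 0.21, adjusted p = 0.312) in WT and 0.18 (SE 0.21, adjusted p = 0.458) in Aim2-/- cells.

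Among the brakes of mTORC1, the stress-induced sestrins, which act when amino acids are scarce, differed in timing. Sesn1 (chromosome 10, 41809935 to 41908424, plus strand) read 141, 188 and 161 CPM at 0 h in the mice labelled WT 1, 3 and 4 and 49.6, 60.0 and 65.8 CPM at 3 h. In Aim2-/- mice 1, 2 and 4 it went from 99.2, 120 and 127 CPM to 52.5, 51.0 and 56.6 CPM. Most of its fall was thus over by 3 h, when 35.9% ± 4.48 of the 0 h level was left in WT and 46.7% ± 5.47 in Aim2-/- mice (SD, n = 3). The log2 fold change at 3 h was -1.48 (SE 0.12, adjusted p = 7.40e-09) in WT cells, the largest fall among the members at that time, and -1.11 (SE 0.11, adjusted p = 4.60e-07) in Aim2-/- cells. Sesn3 (chromosome 9, 14275067 to 14333101, plus strand) moved later. It read 730, 649 and 666 CPM at 0 h, 477, 569 and 701 CPM at 3 h and 144, 148 and 148 CPM at 24 h in the WT mice. The 0 h and 3 h libraries overlapped, and the log2 fold change at 3 h was -0.23 (SE 0.15, adjusted p = 0.258). By 24 h it was -2.22 (SE 0.15, adjusted p = 3.61e-11) in WT and -1.71 (SE 0.15, adjusted p = 1.90e-09) in Aim2-/- cells.

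Tsc1, the scaffold of the complex that turns mTORC1 off (chromosome 2, 28641228 to 28691167, plus strand), fell in steps. Its WT means were 140 ± 6.78, 104 ± 11.7, 82.2 ± 2.73 and 54.0 ± 1.46 CPM at 0, 3, 6 and 24 h (SD, n = 3), and its Aim2-/- means were 117 ± 8.78, 90.1 ± 7.57, 64.9 ± 7.28 and 49.5 ± 6.56 CPM. At 24 h the log2 fold change was -1.37 (SE 0.10, adjusted p = 1.37e-10) in WT and -1.24 (SE 0.10, adjusted p = 7.64e-10) in Aim2-/- cells. Ddit4, also called REDD1, an inhibitor of mTORC1 induced by hypoxia and glucocorticoids (chromosome 10, 59949669 to 59951834, minus strand), had the widest spread between WT mice at 0 h relative to its mean. It read 56.2, 32.6 and 40.5 CPM at 0 h in the mice labelled WT 1, 3 and 4, 43.5, 27.4 and 23.3 CPM at 3 h, 34.4, 35.1 and 31.8 CPM at 6 h, and 16.2, 15.0 and 17.3 CPM at 24 h. In Aim2-/- mice 1, 2 and 4 it read 84.9, 64.2 and 66.1 CPM at 0 h, 46.7, 29.3 and 26.5 CPM at 3 h, 58.5, 48.2 and 40.2 CPM at 6 h, and 19.0, 15.9 and 15.7 CPM at 24 h. It was lower at 24 h than at 0 h in each of the 6 mice, with log2 fold changes of -1.42 (SE 0.24, adjusted p = 1.64e-05) in WT and -2.09 (SE 0.24, adjusted p = 9.98e-08) in Aim2-/- cells. The fall was not steady in Aim2-/- cells, where each mouse read higher at 6 h than at 3 h. At 3 h the WT change of -0.46 was not called (SE 0.23, adjusted p = 0.136), but it was with mouse as a replicate block (-0.46, SE 0.14, adjusted p = 0.0129), while the Aim2-/- change was -1.07 (SE 0.23, adjusted p = 0.00118). The Aim2-/- call at 6 h (-0.55, SE 0.23, adjusted p = 0.0472) was lost when any one of the 3 Aim2-/- mice was left out (adjusted p = 0.0624, 0.104 and 0.184).

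Txnip and Tsc22d3 had the largest falls at 24 h. Txnip binds thioredoxin, curbs glucose uptake and is repressed by mTOR signalling (chromosome 3, 96557957 to 96561883, plus strand, directly after the promoter shown above). It read 982, 1151 and 1156 CPM at 0 h in the mice labelled WT 1, 3 and 4, and 69.1, 59.1 and 90.9 CPM at 24 h. At 3 h it was already lower in WT cells (-1.01, SE 0.15, adjusted p = 1.92e-05). In Aim2-/- mice 1, 2 and 4 it read 735, 922 and 942 CPM at 0 h and 119, 98.8 and 96.3 CPM at 24 h. The libraries of the genotypes did not overlap at either time, and their order was opposite at 0 h and 24 h. Neither difference was called in the main fit, where the adjusted p was 0.165 (0 h) and 0.0872 (24 h). Of the 9 members, 6 did not overlap between genotypes at 0 h, and 3 at 24 h. The share of all genes that did not overlap at these times is not given here. The log2 fold change at 24 h was -3.91 (SE 0.17, adjusted p = 4.88e-14) in WT and -3.05 (SE 0.16, adjusted p = 1.12e-12) in Aim2-/- cells. Tsc22d3 encodes GILZ, a leucine zipper protein induced by glucocorticoids (chromosome X, 140539528 to 140600659, minus strand). It went from 365, 367 and 432 CPM to 18.3, 15.4 and 30.9 CPM in the WT mice and from 346, 337 and 392 CPM to 29.1, 23.8 and 26.5 CPM in Aim2-/- mice, so 5.45% ± 1.53 and 7.41% ± 0.879 of the 0 h level were left (SD, n = 3). The sources do not say if reads were counted by strand. Exons of Txnip overlap those of Gm15441 on the opposite strand over 606 bases, and those of Pik3ip1 overlap Gm12592 over 91 bases; these neighbours averaged 0.553 and 0.289 CPM, far below the members.

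The steps between successive times show when the change took place. From 3 to 6 h in WT cells, 7 members fell (11.5% of all genes), all but Ddit4 and Inpp4b, and Inpp4b rose (14.2% of all genes), by 0.63 on the log2 scale (SE 0.21, adjusted p = 0.0288). From 6 to 24 h in WT cells 8 members fell (28.0% of all genes), Inpp4b now among them (-0.58, SE 0.21, adjusted p = 0.0213), while Inpp5d was not called (-0.03, SE 0.10, adjusted p = 0.825). The rise of Inpp4b from 3 to 6 h was not called without any one of the WT mice, at 0.46, 0.65 and 0.78 without WT 1, WT 3 and WT 4 (adjusted p = 0.246, 0.152 and 0.0847). Its fall from 6 to 24 h was not called without WT 1 (-0.51, adjusted p = 0.122) or WT 4 (-0.56, adjusted p = 0.107). In all, 6 members were called from 3 to 6 h (18.6% of all genes) and 7 from 6 to 24 h (47.5%) without WT 1. Without WT 3 or WT 4 the count from 3 to 6 h was 4 (12.3% of all genes) or 5 (9.83%). In Aim2-/- cells 3 members fell from 3 to 6 h (9.89% of all genes), namely Inpp5d, Sesn3 and Tsc1. With mouse as a replicate block 8 were called, while the share of all genes called in either direction went from 23.3% to 35.5%. Inpp4b (0.42, SE 0.11, adjusted p = 0.00644) and Ddit4 (0.54, SE 0.14, adjusted p = 0.00549) then rose, and Sesn1, Txnip and Tsc22d3 joined those that fell. From 6 to 24 h 7 members fell in Aim2-/- cells (27.0% of all genes), all but Inpp4b and Inpp5d, and with the block Inpp5d was called too (62.9% of all genes called in either direction).

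Between genotypes few members were called, in a fit that takes the 4 libraries of a mouse as separate samples. At 0 h 1 member was called in Aim2-/- against WT cells (5.23% of all genes), Sesn1, at -0.50 on the log2 scale (SE 0.11, adjusted p = 0.0179). Its 3 Aim2-/- libraries, 99.2 to 127 CPM, all lay under the lowest WT library at 141 CPM. Without the mouse labelled WT 1 there were 3 calls (5.77% of all genes). Sesn1 was then at -0.60 (SE 0.11, adjusted p = 0.00563), Pik3ip1 at -0.76 (SE 0.20, adjusted p = 0.0356) and Ddit4 at 0.97 (SE 0.22, adjusted p = 0.0164). The call of Sesn1 with all mice was lost without WT 3, WT 4, Aim2-/- 1 or Aim2-/- 4 (adjusted p = 0.148, 0.0688, 0.116 and 0.0525), with log2 values from -0.40 to -0.58. With all mice the values of Pik3ip1 and Ddit4 were -0.64 (SE 0.21, adjusted p = 0.0665) and 0.73 (SE 0.23, adjusted p = 0.0603). DESeq2 and limma-voom each called these 3 members with all mice included. No share of all genes is given for calls by DESeq2 or limma-voom, here or below.

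At 6 h 2 members were called (15.8% of all genes), both lower in Aim2-/- cells. Inpp4b was at -0.83 (SE 0.21, adjusted p = 0.0168), with 188 to 292 CPM in Aim2-/- against 364 to 438 CPM in WT libraries. Tsc1 was at -0.34 (SE 0.10, adjusted p = 0.0317), with 56.5 to 70.0 CPM against 79.1 to 84.1 CPM. Without the mouse labelled WT 1 only Inpp4b was called (11.4% of all genes), at -0.78 (SE 0.23, adjusted p = 0.0418), while Tsc1 was at -0.33 (SE 0.12). At 0, 3 and 24 h Inpp4b was not called, at -0.45, -0.61 and -0.51 (adjusted p = 0.19, 0.192 and 0.176). The call of Inpp4b at 6 h was lost without WT 3, WT 4, Aim2-/- 1 or Aim2-/- 4 (adjusted p = 0.0662, 0.0713, 0.10 and 0.0655), and that of Tsc1 without any mouse other than Aim2-/- 2 (adjusted p from 0.0751 to 0.118). Within the Aim2-/- group, mouse 2 read highest for Inpp4b at every time, for example 235 CPM against 156 and 132 CPM at 3 h.

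The counts between genotypes turned on this mouse. Without Aim2-/- 2, 4 members were called at 0 h (13.7% of all genes), 2 at 3 h (7.31%), 3 at 6 h (25.7%) and 2 at 24 h (17.3%). Inpp4b was then called at each time, at -0.62 (SE 0.15, adjusted p = 0.0136), -0.88 (SE 0.15, adjusted p = 0.00466), -1.04 (SE 0.15, adjusted p = 0.000383) and -0.71 (SE 0.15, adjusted p = 0.00501). The other calls were Sesn1, Sesn3 and Tsc1 at 0 h, Sesn3 at 3 h, Sesn3 and Tsc1 at 6 h, all lower in Aim2-/- cells, and Txnip at 24 h, which was higher (0.56, SE 0.17, adjusted p = 0.0327). The same setting raised the share called among all genes at every time.

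At 3 h and at 24 h edgeR called 0 members (0.294% and 0.666% of all genes), with 3 and 2 members at an unadjusted p under 0.05 (15.3% and 20.5% of all genes). DESeq2 called 0 and 1, the latter Txnip, and limma-voom called 0 and 0. The counts were again 0 and 0 when the mouse labelled WT 1 was left out (2.71% and 1.05% of all genes). With the 4 libraries of each mouse summed, edgeR called 0 members (0.0117% of the 17163 genes then tested), with 5 at an unadjusted p under 0.05 (23.3% of genes); DESeq2 called 2, Inpp4b and Pik3ip1, and limma-voom called 0. The edgeR count was again 0 without the mouse labelled WT 1 (0.854% of genes). Without Aim2-/- 2, edgeR called 3 (16.7% of all genes), namely Inpp4b, Sesn3 and Tsc1.

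**Figure D3:**
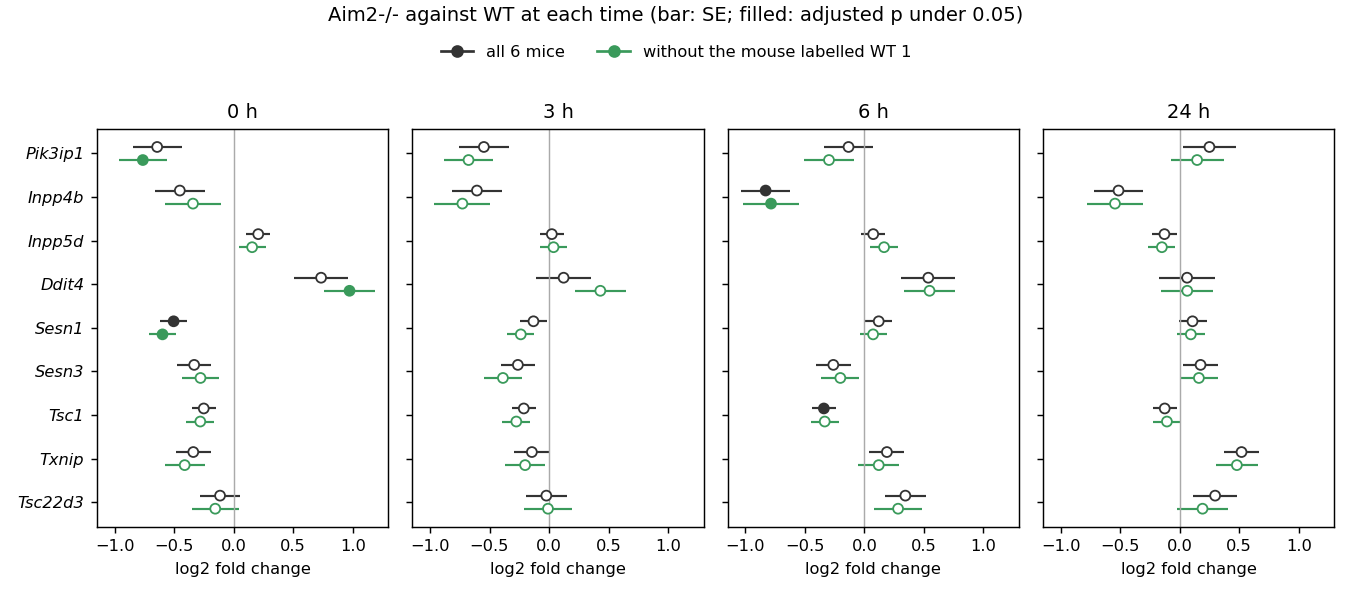
Log2 fold change of Aim2-/- against WT cells (horizontal axis) for each gene (vertical axis) at 0, 3, 6 and 24 h, with all 6 mice and without the mouse labelled WT 1. Bars are 1 SE and filled points have an adjusted p under 0.05. With all mice the filled points are Sesn1 at 0 h and Inpp4b and Tsc1 at 6 h.

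Markers of other cells moved with genotype. At 0 h the summed level of 10 B cell markers was 11.3 to 15.8 CPM in WT and 19.2 to 51.9 CPM in Aim2-/- libraries, that of 10 myeloid markers 35.6 to 68.7 against 114 to 421 CPM, and that of 6 erythroid markers 7.70 to 71.8 against 21.1 to 336 CPM. At 6 h the same sums were 8.08 to 13.0 against 18.3 to 52.5, 24.5 to 47.3 against 66.6 to 264, and 8.08 to 64.9 against 23.2 to 498 CPM. Aim2-/- mouse 2 had the lowest myeloid and erythroid sums of its group at 0 h, 114 and 21.1 CPM. No marker was at 0 in every library of a group. At 0 h 2 B cell and 3 myeloid markers were called higher, and 3 and 2 at 6 h. The 8 CD4 T cell markers summed to 4922 to 5091 against 5036 to 5298 CPM at 0 h. Scores of the B cell, myeloid and erythroid lists were then added as terms of the model, a choice made after seeing the data. Inpp4b at 6 h was called at a smaller size (-0.51, SE 0.11, adjusted p = 0.0169, against -0.83 without the scores). Sesn1 at 0 h (-0.58, SE 0.14, adjusted p = 0.0589) and Tsc1 at 6 h (-0.26, SE 0.09, adjusted p = 0.126) were not called. The myeloid sums did not overlap between genotypes at 0 or 6 h, so these terms cannot separate genotype from other cells.

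Whether the response to stimulation itself differed between genotypes was tested by the interaction term, the change in Aim2-/- cells minus the change in WT cells. Without a block edgeR called 0 members at 3, 6 and 24 h (0%, 0.0261% and 0% of all genes), with 1, 2 and 5 members at an unadjusted p under 0.05 (4.26%, 13.2% and 11.9% of all genes); DESeq2 called 0, 1 (Sesn1) and 2 (Sesn1 and Txnip), and limma-voom called 0 at each time. With mouse as a replicate block Sesn1 was called at 6 h (4.68% of all genes), at 0.62 (SE 0.14, adjusted p = 0.0171). At 24 h 3 members were called (2.77% of all genes). They were Txnip at 0.87 (SE 0.16, adjusted p = 0.00924), Sesn1 at 0.61 (SE 0.14, adjusted p = 0.0248) and Pik3ip1 at 0.92 (SE 0.24, adjusted p = 0.0400). All of these fell less in Aim2-/- than in WT cells. Txnip kept 6.68% ± 1.40 of its 0 h level at 24 h in WT mice (range 5.13% to 7.87%) and 12.4% ± 3.31 in Aim2-/- mice (10.2% to 16.2%). Sesn1 kept 17.3% ± 2.64 against 26.6% ± 6.61, and Pik3ip1 8.19% ± 2.89 against 15.7% ± 6.95 (SD, n = 3).

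The share left at 24 h did not overlap between genotypes for 6 of the 9 members, nor for 20.9% of the 14570 genes for which it could be computed. For Pik3ip1 the groups lay apart only just, with up to 11.1% in WT and from 11.2% in Aim2-/- mice. At 0 h the edgeR values of Aim2-/- against WT cells were -0.34 for Txnip (adjusted p = 0.165), -0.50 for Sesn1 (adjusted p = 0.0179) and -0.64 for Pik3ip1 (adjusted p = 0.0665). Only that of Sesn1 was called. Without the mouse labelled WT 1 and with the block, Sesn1 at 6 h was at 0.67 (SE 0.15, adjusted p = 0.0262; 3.49% of all genes). At 24 h Txnip was at 0.92 (SE 0.19, adjusted p = 0.0167) and Sesn1 at 0.69 (SE 0.16, adjusted p = 0.0226), while Pik3ip1 at 0.95 (SE 0.28, adjusted p = 0.0660) was no longer called and Ddit4 was (-0.91, SE 0.19, adjusted p = 0.0151; 4.22% of all genes). Ddit4 went the other way: it kept 39.2% ± 9.12 of its 0 h level in WT mice and 23.6% ± 1.23 in Aim2-/- mice, from a higher start.

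**Figure D4:**
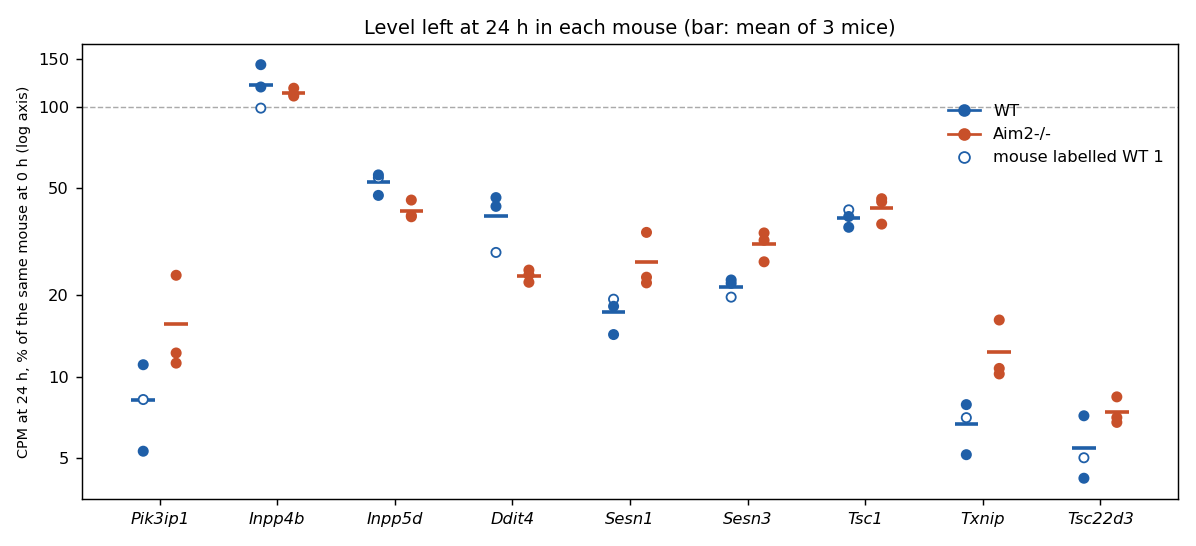
CPM at 24 h as a percentage of the same mouse at 0 h (vertical axis, log scale) for each gene (horizontal axis). Points are mice, open points the mouse labelled WT 1, short bars the mean of 3 mice, and the dashed line marks no change. Aim2-/- points lie above WT points for Pik3ip1, Sesn1, Sesn3 and Txnip and below them for Inpp5d and Ddit4.

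The other genes of the pathway did not share one direction. At 24 h, 36.6% of all genes were called higher and 34.8% lower in WT cells, and 36.8% and 33.5% in Aim2-/- cells. Of 18 tested other brakes (19 listed), 8 rose and 7 fell at 24 h in WT cells and 6 rose and 8 fell in Aim2-/- cells, with median log2 fold changes of -0.01 and -0.06. Phlpp1, a phosphatase of AKT, fell (-2.65, SE 0.16). Tbc1d7 and Tsc2, the partners of Tsc1 in its complex, rose by 3.35 (SE 0.20) and 0.50 (SE 0.13, adjusted p = 0.00233), and Eif4ebp1, a repressor of translation that mTORC1 inactivates, rose by 2.42 (SE 0.18). Sesn2, the third sestrin, read 22.3 ± 4.05 CPM at 0 h and 29.6 ± 1.26 CPM at 24 h in WT cells. It rose there by 0.41 (SE 0.13, adjusted p = 0.00917). In Aim2-/- cells, which started from a mean of 27.7 CPM at 0 h, it differed by -0.06 (SE 0.13, adjusted p = 0.717). These separate results do not show a difference between genotypes. Of the 18 tested other brakes, Sesn2 among them, 0 were called for the interaction at 24 h without a block. Between genotypes at 0 h and at 24 h, 0 were called as well.

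Of 14 PI3K and AKT genes, 3 rose and 8 fell at 24 h in WT cells, and 2 and 6 in Aim2-/- cells. The 3 largest changes in WT cells were falls of subunits of PI3K, Pik3r1 (-2.65, SE 0.13), Pik3r5 (-2.01, SE 0.16) and Pik3ca (-1.43, SE 0.10). Of 24 genes of mTORC1, mTORC2 and their activators, 15 rose and 6 fell in WT cells, and 13 and 6 in Aim2-/- cells. The largest changes here concerned mTORC2, whose subunit Rictor fell (-2.56, SE 0.14) while Mapkap1 rose (1.55, SE 0.10). Prr5 rose as well (2.95, SE 0.59), from 0.252 ± 0.171 to 1.99 ± 0.103 CPM, a range in which counts are low. Of 14 tested upstream regulators (15 listed), 3 rose and 10 fell at 24 h in each genotype. Foxo1 fell (-1.99, SE 0.09), the glucocorticoid receptor gene Nr3c1 fell (-2.55, SE 0.13), as did its target Per1 (-2.41, SE 0.11), while its target Fkbp5 rose (1.34, SE 0.11). Arrdc4, a relative of Txnip, fell too (-2.97, SE 0.40). Median log2 fold changes at 24 h in WT and Aim2-/- cells were -0.64 and -0.66 for the PI3K and AKT genes, 0.38 and 0.45 for the mTOR genes and -1.10 and -1.08 for the regulators. In Aim2-/- against WT cells the 70 tested genes of these lists gave 2, 0, 13 and 1 calls at 0, 3, 6 and 24 h, beside 5.23%, 0.294%, 15.8% and 0.666% of all genes. Of the 13 at 6 h, 8 were higher and 5 lower. There were 2, 2, 7 and 0 calls without the mouse labelled WT 1, beside 5.77%, 2.71%, 11.4% and 1.05% of all genes. The 2 at 0 h, Prr5 and Arrdc4, were both higher. Of the 7 at 6 h, 4 were higher and 3 lower. With all mice Rictor was lower at 0 h (-0.52, SE 0.13, adjusted p = 0.0318), and Eif4ebp1 (0.79, SE 0.17, adjusted p = 0.0101) and Arrdc4 (1.06, SE 0.34, adjusted p = 0.0406) were higher at 6 h. The call at 24 h was Foxo4 (0.50, SE 0.11, adjusted p = 0.0481), named after its value was seen. When that mouse was left out, Eif4ebp1 (0.84, adjusted p = 0.0192) and Arrdc4 (1.28, adjusted p = 0.0351) were still called, while Rictor (-0.50, adjusted p = 0.0548) and Foxo4 (0.53, adjusted p = 0.0566) were not.

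Across the 24 libraries the members other than Inpp4b ran together. Pearson's r of log2 CPM lay between 0.64 and 0.99 (median 0.89) over their 28 pairs, and between -0.37 and -0.02 over the 8 pairs with Inpp4b. These values describe libraries that share mice, times and normalization. Deviations from the group means remove the mean of each time and labelled genotype, but not what the libraries of a mouse share. On these deviations, Inpp4b and Sesn3 had r = 0.88, although their r over all libraries was -0.02. Aim2-/- mouse 2 read highest of its group for both genes at every time. Tsc1 had r = 0.68 with Inpp4b and 0.70 with Sesn3. Inpp4b, Sesn3 and Tsc1 have the longest annotated exons of the members (13066, 15269 and 11833 bases). The part that gene length or RNA quality plays was not tested. Pik3ip1 and Txnip had r = 0.87 and Ddit4 and Sesn1 r = -0.56 on the same deviations. Among 8652 genes with a mean of at least 10 CPM, the closest to Txnip were Rasa3, Klhl24 and Ip6k1 (r = 0.99 each), and the closest to Tsc22d3 was Txnip itself (r = 0.99), followed by Pink1 and Tprgl. Those closest to Pik3ip1 were Dgka, Dirc2 and Il17ra (r = 0.99, 0.99 and 0.99), to Sesn1 Gramd1a, Ranbp10 and Usp48, to Sesn3 Pkd1, Fryl and Rictor (r = 0.98 each), to Tsc1 Setd2, Tnrc6c and Numa1, and to Inpp5d Sorl1, Flna and Anapc2 (r = 0.97 each). Ddit4 (Plekhb2, Gimap7 and Gna12, r = 0.93 each) and Inpp4b (Trim44 at r = 0.92, Polr3b and Nsd1 at 0.87) had no gene as close.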

How the data were processed

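RNA of splenic CD4+ T cells was sequenced in 24 libraries, 3 mice per genotype and time. The authors selected the cells negatively, prepared stranded mRNA libraries, aligned the reads to GRCm38 (Ensembl annotation) with STAR, and deposited unnormalized counts of reads per gene. DESeq2 and edgeR are also named in the submitters' processing notes. Symbols and exon lengths came from GENCODE of the same build and promoters from RefSeq. Coordinates are 1-based.

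The counts were tested with edgeR 4.0.16 (R 4.3.3), a quasi-likelihood F test, two-sided, with TMM factors, a filterByExpr minimum count of 10 (15325 genes, 99.9% of counts) and 8 group means over all 24 libraries. Within each comparison, p-values were corrected over all genes tested by the Benjamini-Hochberg method, and a gene is called at an adjusted p under 0.05. CPM used TMM-scaled totals; log2 CPM used a prior count of 2. Each SE was derived from the fit. Settings were checked on simulated data. Group names follow the labels, in which libraries with 1 number and genotype are 1 mouse. The deviations of such libraries from the group means correlated with r from 0.139 to 0.567 in 36 of 36 pairs, those of different mice of 1 genotype with r from -0.432 to 0.0742, so mouse was also fitted as a block.

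All 9 members are described; of the other lists, the text names the 3 called genes with the largest change at 24 h in WT cells, and Tsc2, Sesn2, Foxo1, Arrdc4 and Fkbp5, while 1 further listed gene is not reported here; and per member the 3 genes with the highest r. The members and lists were chosen with earlier results of these data known. Alternatives were RLE factors or library totals, DESeq2 1.42.0, limma-voom (limma 3.58.1), no filter, a mean of at least 1 CPM, only the libraries compared, mouse or mouse number as a block, and leaving out each mouse or library. Marker scores as terms, and the block without the mouse labelled WT 1, were chosen after seeing the data. P values of the main fit rest on the spread between libraries within groups, taking the 4 libraries of a mouse as separate samples. Those with mouse as a replicate block rest on the spread left within mice. Those of summed libraries rest on the spread between mice. Counts carry no view of isoforms.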

Additional observations from a re-analysis of the deposited data

Results flagged for a closer look

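4 responses to stimulation differed between genotypes by the interaction term with mouse as a replicate block, and none of them did so in edgeR's fit without a block. DESeq2 without a block called Sesn1 at 6 h and Sesn1 and Txnip at 24 h. At 6 h this was Sesn1 (0.62 on the log2 scale, adjusted p = 0.0171, against 0.63 and adjusted p = 0.0941 without the block). At 24 h they were Txnip (0.87, adjusted p = 0.00924, against 0.86 and 0.115), Sesn1 (0.61, adjusted p = 0.0248, against 0.61 and 0.141) and Pik3ip1 (0.92, adjusted p = 0.0400, against 0.89 and 0.245). The sizes were nearly equal in both fits and the standard errors were not, since the block takes out what the libraries of a mouse share. A positive value means a smaller fall in Aim2-/- cells. The part that starting level and other cell types play in these differences was not tested.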

How the results depend on the processing

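Of the 6 comparisons with 0 h, the count of members called stayed within 1.5 times the main count under every setting tried. The other counts are less stable. For DESeq2, limma-voom, RLE factors, other filters, only the libraries compared and marker scores, the share of all genes called is not given here. Counts under these settings cannot be set against such a share. Aim2-/- cells from 3 to 6 h (3 calls) gave 5 with RLE factors, DESeq2, no filter or a mean of at least 1 CPM, and 8 with mouse as a replicate block or as a random block in limma-voom. At 0 h the genotypes (1 call) gave 3 with DESeq2, limma-voom and its random block, 4 without a filter, and 0 with only the libraries compared or with marker scores. At 6 h (2 calls) they gave 1 with only the libraries compared or with marker scores. At 3 and 24 h (0 calls) no filter gave 2 each, and DESeq2 gave 1 at 24 h. Summed libraries (0 calls) gave 2 with DESeq2 and 1 with no filter. The interaction (0 calls) gave 1 at 6 h and 2 at 24 h with DESeq2 and with the random block, 1 and 3 with mouse as a replicate block, 1 and 3 with that block but without the mouse labelled WT 1, and 2 at 24 h with no filter. Leaving out 1 mouse or library gave 4 to 7 calls for WT cells from 3 to 6 h (8 with all), 0 to 4, 0 to 2, 0 to 3 and 0 to 2 for the genotypes at 0, 3, 6 and 24 h, and 0 to 3 for summed libraries. The highest of these counts between genotypes came without Aim2-/- mouse 2. Of 162 values of a member in a comparison, 19 changed sign under some alternative, and 0 of these were called. They include Inpp4b, with log2 fold changes from -0.027 to 0.42 in WT cells at 3 h, -0.24 to 0.20 in Aim2-/- cells at 3 h and -0.023 to 0.32 at 24 h, Inpp5d in WT cells from 6 to 24 h (-0.13 to 0.08) and Ddit4 between genotypes at 3 h (-0.17 to 0.43). The causes were not tested.

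Mouse number as a replicate block over both genotypes gave 7, 3, 4 and 2 calls at 0, 3, 6 and 24 h and 3 for summed libraries. The share of all genes called under this setting is not given here, so these counts cannot be set against it. Number 2 occurs only in Aim2-/- and number 3 only in WT mice, so the block takes up the levels of these mice. Levels of the genotypes are then compared through numbers 1 and 4, which include the mouse labelled WT 1. The numbers do not mark shared animals, and libraries of equal number correlated from 0.157 to 0.268 for number 1 but from -0.165 to 0.0316 for number 4. With library totals alone the median of all genes moved by at most 0.12, for Aim2-/- cells at 6 h. In that comparison Ddit4 was then not called (-0.43), while Inpp4b was called higher. At 3 h the calls of Inpp5d and Tsc1 in WT cells were lost without WT 4 (adjusted p = 0.0885) and WT 3 (0.0546), and that of Tsc1 in Aim2-/- cells without the 0 h library of mouse 2 (0.0535). Mouse as a replicate block changed no call of a member beyond those given. The number of mice, 3 per group, limits the precision of every difference between genotypes.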
